A study of Mus musculus with 24 samples.

Results

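Potassium channel subunit genes were chosen as the protein-coding genes of the annotation whose symbol is Kcn followed by letters and a number. The rule uses names and no measured value. It found 92 genes among 22018 protein-coding genes and 48709 genes in all. By symbol they fell into 40 pore subunits of voltage-gated channels, 15 inward rectifiers, 14 two-pore leak channels, 8 pore subunits of calcium- and sodium-activated channels and 15 auxiliary subunits. Kcnu1, which the plan listed apart as a sperm channel, was counted among these 8, so the values of that class include it.

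Potassium channels let potassium leave or enter cells through the membrane and so set the resting voltage, the shape of the action potential and how often a neuron fires. Voltage-gated members open on depolarization, calcium- and sodium-activated members open when those ions enter, two-pore channels leak at rest, and inward rectifiers hold the resting voltage and, in glia, take up potassium released by neurons. Auxiliary subunits bind the pore subunits and change their gating or their delivery to the membrane. In the cerebral cortex after birth, many of these genes are switched on as neurons mature.

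The measurements were RNA-seq read counts per gene in cerebral cortex and whole blood of mouse neonates, taken to ask how exposure in the womb to nano-sized particulate matter (nPM), the smallest fraction of traffic-derived particles, changes the transcriptome. Dams of the nPM groups breathed nPM at 300 per m3 (in mg by the labels, in µg by the methods) in sessions of 5 h, 3 days a week, from gestational day 2 to birth, and control dams breathed filtered air. The strain is C57BL/6J in the labels and C57BL/6NJ in the methods, and the age is 3 to 5 days for every pup in the labels and day 5 in the methods. There were 6 control and 6 nPM libraries in each tissue, 3 of each sex, and the labels name no genetic change in any group. The labels do not link the blood and the cortex of one animal. Exposure was given to dams, and the labels do not give the litter of a pup. By the methods the 3 neonates of each sex and group came from different litters. Whether a male and a female of a group shared a litter is not stated, and the fits treat each library as independent. P-values measure the spread between these libraries.

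Cortex libraries held 22.3 to 33.8 M (mega) counts with RNA integrity numbers (RIN) of 9.4 to 9.9, and between 82 and 87 of the 92 channel genes had a count in each. Blood libraries held 13.6 to 21.9 M counts, had RINs of 7.5 to 9.3 and showed 12 to 72 of the channel genes. The label of cortex was met by the markers of excitatory cortex neurons, which had 796 to 1023 CPM (counts scaled to the library's total) summed over 6 genes in every cortex library and at most 1.48 CPM in the blood libraries compared. Cortex was sequenced in lane 2 (4 males and 4 females) and lane 3 (2 males and 2 females). Library V2, a blood control female with globin at 50.1% of its counts and 22461 genes detected, stood apart, and it was left out of the blood comparison, as the study left out 1 blood sample. In bulk tissue, fewer cells of a type and less RNA per cell cannot be told apart.

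In cortex, 80 of the 92 genes had at least 1 count in every library, 11 in some and 1, Kcnk18, in none. Levels between genes are given as RPKM, here the TMM-scaled CPM per kb of gene length. The median gene stood at 3.53 RPKM, 65 genes were above 1 RPKM and 25 above 10 RPKM. Voltage-gated pore subunits were the best represented class, with 37 of 40 in every library and a median of 5.27 RPKM. The calcium- and sodium-activated subunits had a median of 4.58 RPKM, the inward rectifiers 3.10, the auxiliary subunits 2.76 and the two-pore channels 1.45.

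The most abundant members of the subfamilies show which channels neonatal cortex transcribed. Kcnd2, a pore subunit of the fast A-type current that delays firing, led with 29.7 ± 1.3 RPKM (mean ± SD, n = 12 libraries). Next came Kcnj4, an inward rectifier, at 26.0 ± 3.33 RPKM and Kcnip2, a calcium-binding partner of the Kcnd subunits, at 24.2 ± 2.00 RPKM. Kcnv1 at 24 ± 1.70 RPKM and Kcnf1 at 22.7 ± 2.57 RPKM are electrically silent subunits that work only by joining other pore subunits. The ranges over libraries of Kcnj4, Kcnip2, Kcnv1, Kcnh3 and Kcnf1 overlapped one another, so their order is not fixed beyond the spread. The range of Kcnd2, 27.6 to 32.0 RPKM, overlapped all of these but Kcnv1, and Kcnj4 reached 34.3 RPKM. Kcnh3, of the ether-à-go-go family, had 24 ± 2.41 RPKM. Kcnma1, the pore of the large-conductance channel opened by calcium and voltage, had 20.9 ± 1.78 RPKM and its brain beta subunit Kcnmb4 14.1 ± 1.20 RPKM.

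Among the other leading members, Kcnk1, a two-pore channel, had 19.7 ± 2.07 RPKM and Kcna6, a delayed rectifier, 19 ± 0.83 RPKM. Kcnab2, a cytoplasmic beta subunit of Kcna channels, had 16.1 ± 2.35 RPKM. Kcnq5, a pore of the M-current that muscarinic receptors switch off, had 15 ± 0.823 RPKM and Kcnt2, a sodium-activated pore, 13.1 ± 1.7 RPKM. Kcnc4, of the family that serves fast spiking, reached 7.76 ± 0.950 RPKM. Kcnn1, a small-conductance channel opened by calcium, had 6.98 ± 0.439 RPKM, and the silent subunits Kcns2 and Kcng1 had 6.76 ± 0.486 and 6.53 ± 0.555 RPKM. Lowest of these leaders were Kcnu1, known from sperm, at 1.28 ± 0.168 RPKM and Kcne2, a small auxiliary subunit, at 0.993 ± 0.440 RPKM.

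The plot of levels by class shows both tissues side by side. For 12 genes some cortex library had no count, so they were not tested there. Kcnn4 reached 15 counts in a library, Kcnj15 10, Kcnv2 7, Kcnk15 4, Kcna7 4, Kcnk16 3, Kcne1 3, Kcnk7 2, Kcnmb3 2, Kcna10 2, Kcnj1 1 and Kcnk18 0. Kcnn4 and Kcnj15 had a count in each female library and were tested in females. A gene listed at 0 can still have been present below 3 counts, which is 0.0887 to 0.135 CPM in these libraries, and that floor covers counting error only.

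**Figure D1:**
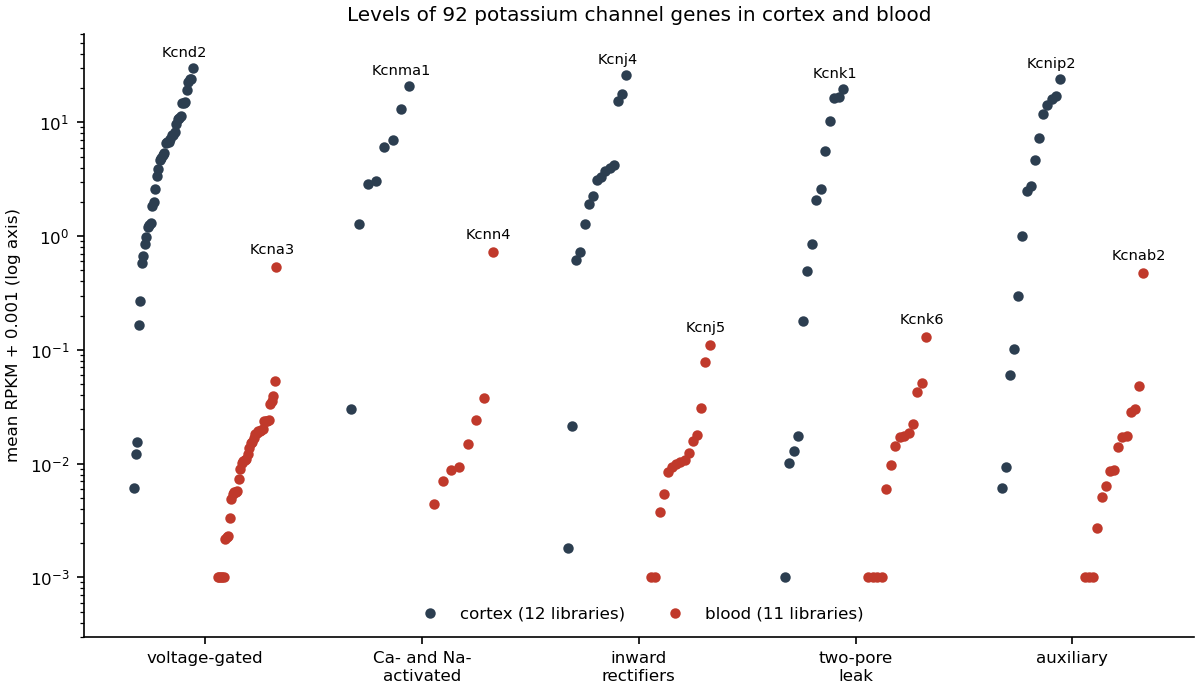
Mean RPKM plus 0.001 (log axis) of the 92 potassium channel genes by class, each gene 1 point, in 12 cortex libraries and in 11 blood libraries. Cortex spans from 0 to 29.7 RPKM with 65 genes above 1 RPKM, and no gene is above 1 RPKM in blood.

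Results in females turned on 4 genes that passed an adjusted p of 0.05 there, Kcnh5, Kcnh7, Kcnt2 and Kcnc2, so the promoters of these are printed. Kcnh5 and Kcnh7 are voltage-gated pore subunits of the ether-à-go-go family, Kcnt2 is a sodium-activated channel that slows firing after a burst, and Kcnc2 serves fast-spiking interneurons. In mm10 the gene table places Kcnh5 at chr12:74897217-75177332 on the minus strand, Kcnh7 at chr2:62693414-63184287 on the minus strand, Kcnt2 at chr1:140246158-140612067 on the plus strand and Kcnc2 at chr10:112271123-112466304 on the plus strand. The 250 bases before the transcription start come from RefSeq, build GRCm38.p6. They span chr12:75177333-75177582 for Kcnh5, chr2:63184288-63184537 for Kcnh7, chr1:140245468-140245717 for Kcnt2, whose RefSeq start lies 440 bases before that of the gene table, and chr10:112270873-112271122 for Kcnc2, the nearest of its 4 windows to the start in the gene table. They are written 5′ to 3′ on the strand of the gene, with matches to the motifs searched in capitals.
Kcnh5: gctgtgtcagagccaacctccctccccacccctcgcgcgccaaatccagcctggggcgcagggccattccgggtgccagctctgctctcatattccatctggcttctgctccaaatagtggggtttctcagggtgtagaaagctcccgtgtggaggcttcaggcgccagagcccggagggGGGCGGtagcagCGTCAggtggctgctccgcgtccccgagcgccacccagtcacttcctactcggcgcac
Kcnh7: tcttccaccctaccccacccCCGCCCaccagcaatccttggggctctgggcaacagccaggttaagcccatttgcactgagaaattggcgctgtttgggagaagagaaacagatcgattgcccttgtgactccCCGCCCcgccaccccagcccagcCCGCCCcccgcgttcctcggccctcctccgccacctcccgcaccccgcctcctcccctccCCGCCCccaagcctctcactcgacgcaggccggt
Kcnt2: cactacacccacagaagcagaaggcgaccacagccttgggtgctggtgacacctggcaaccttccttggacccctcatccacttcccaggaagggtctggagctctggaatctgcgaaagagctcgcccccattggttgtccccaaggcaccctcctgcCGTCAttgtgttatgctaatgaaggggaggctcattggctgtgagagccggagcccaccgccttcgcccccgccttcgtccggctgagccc
Kcnc2: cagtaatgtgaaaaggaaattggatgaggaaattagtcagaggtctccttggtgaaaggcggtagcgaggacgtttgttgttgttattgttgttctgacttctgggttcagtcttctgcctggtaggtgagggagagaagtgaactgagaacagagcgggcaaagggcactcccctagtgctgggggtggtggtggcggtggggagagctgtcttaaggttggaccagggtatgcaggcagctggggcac

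Capitals mark the GC box GGGCGG, the TATA box TATAAA and the core TGACG of the cAMP response element TGACGTCA, searched on both strands, where the core lies within the full element. Windows of 67 of the 92 channel genes were found. None of the 67 held the full element, against 1.55% of all 32851 windows. The core was in 20.9% of channel windows and 17.8% of all, the GC box in 46.3% and 32.7%, and the TATA box in 2.99% and 12.4%. Channel windows had a median GC content of 58.8% against 52.4% and a median of 8 CpG sites against 6. Of the 4 printed, Kcnh7 held 4 GC boxes, Kcnh5 1 GC box and 1 core, Kcnt2 1 core and Kcnc2 none, so no motif searched was shared by all. A match is a run of letters and not a shown binding site.

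In cortex of all neonates, potassium channel genes were lower after nPM more often than higher, by small amounts. Of 80 tested, 14 passed an unadjusted p of 0.05 in the edgeR fit of exposure, sex and RIN over all genes, and 12 of these fell while 2 rose. Over all genes, 5.67% passed, 2.94% in the lower and 2.73% in the higher direction, and of protein-coding genes 2.51% passed in the lower direction. None of the 80 passed after adjustment over all genes, where 0.0144% of genes did, and their adjusted p ran from 0.668 to 0.997. In direction, 54 had a lower and 26 a higher estimate, with a median log2 fold change of −0.05 against −0.0024 over all genes. Kcnh7 alone passed the study's cutoff of 0.005, which 0.614% of genes passed, 0.264% downward. None of the 14 had groups that did not overlap, as 0.197% of all genes did. The smallest exact permutation p that 6 libraries against 6 can give is 0.0022. Some markers of another brain region moved with exposure in the same libraries. The 8 genes of the hypothalamus and amygdala list summed to 3.68 to 6.26 CPM in controls and 6.59 to 11.9 CPM after nPM, without overlap, and 5 of the 8 had no count in some library. Of the 3 tested, Gpr101, an orphan receptor, rose by 1.08 on the log2 scale (adjusted p = 0.0441, edgeR). Hdc, the enzyme that makes histamine, rose by 0.70 (adjusted p = 0.4926, edgeR), and Pomc stayed at 0.03 (adjusted p = 0.988, edgeR). Much of the sum was Gpr101, with means of 2.43 CPM in controls and 5.23 CPM after nPM. The study names that gene among its top cortex genes for nPM. The 6 striatum genes summed to 95.5 to 315 CPM in controls and 196 to 245 CPM after nPM, and none passed. The part of such tissue in the channel result was not tested.

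**Figure D2:**
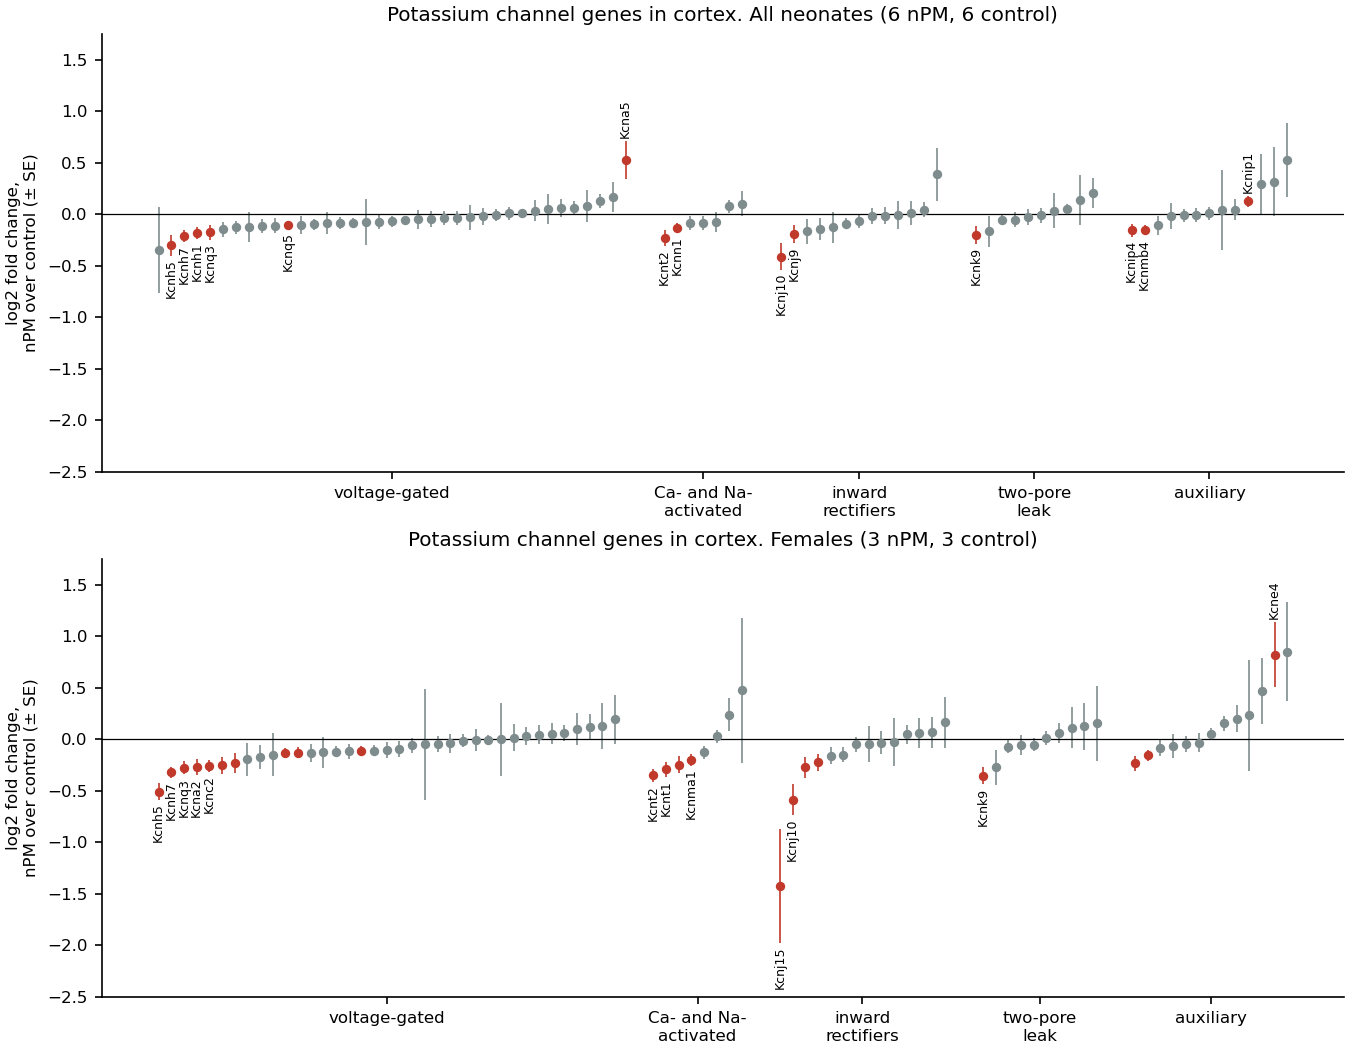
Log2 fold change, nPM over control, of each tested potassium channel gene in cortex by class, with bars of ± SE, in all neonates (upper panel, 6 nPM and 6 control libraries) and in females (lower panel, 3 and 3). Red points, genes past an unadjusted p of 0.05 with some of them labelled, lie mostly below 0 in all neonates (12 of 14) and in females (21 of 22).

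Among voltage-gated pore subunits 5 of 37 fell and 1 rose, with a class median of −0.07. Kcnh7 had 163, 175 and 188 CPM in control libraries (lowest, median and highest) and 137, 149 and 167 CPM after nPM, so the highest nPM library reached the lower end of the controls. Its log2 fold change was −0.21 ± 0.06 (SE, edgeR p = 0.00256, exact permutation p = 0.0108), and it was −0.22 within lane 2 and −0.22 within lane 3. Kcnh1, of the same family, had 58.0, 63.3 and 73.5 CPM in controls and 53.1, 57.8 and 60.5 CPM after nPM. The log2 fold change of Kcnh1 was −0.18 ± 0.06 (edgeR p = 0.0072, exact permutation p = 0.0216). Kcnh5 ran from 42.8 over 51.3 to 61.2 CPM in controls and from 33.8 over 42.3 to 48.3 CPM after nPM, a log2 fold change of −0.30 ± 0.10 (edgeR p = 0.0084, exact permutation p = 0.0303). In all 3 of these ether-à-go-go genes each of the 6 nPM libraries lay below the control median, and the ranges overlapped.

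Both of the M-current genes past the threshold fell. Kcnq5 had 114, 119 and 126 CPM in controls and 105, 111 and 118 CPM after nPM, a log2 fold change of −0.11 ± 0.04 (edgeR p = 0.0216, exact permutation p = 0.0152). Kcnq3, which can pair with Kcnq5 in that channel, had 199, 226 and 247 CPM against 176, 199 and 229 CPM, a log2 fold change of −0.18 ± 0.07 (edgeR p = 0.0294, exact permutation p = 0.0628). The call of Kcnq5 was lost when 1 of V11, V12, V15 or V20 was left out, and that of Kcnq3 when 1 of V10, V11, V14, V15, V19 or V20 was.

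Kcna5, a delayed rectifier better known from heart and vessels, was the 1 voltage-gated gene that rose. It had 1.7, 2.02 and 3.13 CPM in controls and 2.52, 2.99 and 4.84 CPM after nPM, a log2 fold change of 0.52 ± 0.19 (edgeR p = 0.0127, exact permutation p = 0.0325). Its estimate was 0.99 ± 0.27 in males and 0.13 ± 0.22 in females. It was the scarcest of the 14 transcripts.

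In the calcium- and sodium-activated class 2 of 7 fell, with a class median of −0.09. Kcnt2 had 85.8, 98.4 and 112 CPM in controls and 72.0, 82.4 and 95.6 CPM after nPM, a log2 fold change of −0.23 ± 0.08 (edgeR p = 0.00777, exact permutation p = 0.0346). Kcnn1 lay within 31.9 and 34.3 CPM in controls, with a median of 33.7, and within 27.9 and 32.7 after nPM, with a median of 30.6. Its change of −0.13 ± 0.05 (edgeR p = 0.0152, exact permutation p = 0.00433) passed, and the edgeR p became 0.052 without V11.

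Inward rectifiers fell in 2 of 13 cases, with a class median of −0.06. Kcnj10, the main potassium channel of astrocytes, which clears potassium released by active neurons, had 20.5, 21.5 and 32.9 CPM in controls and 15.3, 18.6 and 20.9 CPM after nPM. Its log2 fold change was −0.41 ± 0.13 (edgeR p = 0.00538, exact permutation p = 0.00433), with −0.20 within lane 2 and −0.78 within lane 3. Both control libraries of lane 3, V19 with 32.9 and V24 with 29.3 CPM, were above every other library. Kcnj9, a subunit opened by G proteins downstream of inhibitory receptors, had 58.3, 69.1 and 85.6 CPM against 55.3, 58.9 and 74.1 CPM. At −0.19 ± 0.09 (edgeR p = 0.0499, exact permutation p = 0.119) it lay at the threshold. The call ended when 1 of 8 libraries was left out, with RLE size factors, with limma voom, with a minimum of 10 counts in every library, with lane as a term and with a term for Mbp, and it was kept with DESeq2, with at least 1 count in any library and without RIN.

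Of the two-pore channels 1 of 10 fell, Kcnk9, an acid-sensitive leak channel, with 17, 21.9 and 23.5 CPM in controls and 16, 18.2 and 20.2 CPM after nPM. Its log2 fold change of −0.20 ± 0.08 (edgeR p = 0.0289, exact permutation p = 0.0519) was lost when 1 of 7 libraries was left out. The class median was −0.02.

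Auxiliary subunits went in both directions, with 2 of 13 lower, 1 higher and a class median of 0.0059. Kcnmb4, the beta subunit that slows the gating of the Kcnma1 channel, had 45.7, 48.4 and 54.6 CPM in controls and 41.7, 43.7 and 49.7 CPM after nPM, a log2 fold change of −0.15 ± 0.05 (edgeR p = 0.0106, exact permutation p = 0.026). Kcnip4 and Kcnip1 both bind Kcnd pores, and they moved in opposite directions. Kcnip4 had 39.3, 45.4 and 51.4 CPM against 36.2, 42.2 and 45.6 CPM (−0.16 ± 0.06, edgeR p = 0.024, exact permutation p = 0.0801), with −0.07 in lane 2 and −0.32 in lane 3. Kcnip1, a marker of some interneurons, had 25.7, 27.7 and 30.5 CPM against 28.9, 30.1 and 33.2 CPM (0.12 ± 0.05, edgeR p = 0.0304, exact permutation p = 0.0498). Its call ended without any 1 of 6 libraries, and the Kcnip4 call without any 1 of 4.

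Of the 14 genes, 7 kept p under 0.05 in every other setting and with each library left out in turn, and these were Kcnh7, Kcnj10, Kcnh1, Kcnt2, Kcnh5, Kcnmb4 and Kcna5. The count of 14 fell to 8 without V11, an nPM female, with 3.40% of all genes then past, and to 9 without V15 or V20. The shares of all genes without V15 or V20 are not set beside that count. The strand setting of the counting is not given in the sources used here, so reads of genes on the opposite strand cannot be told apart from those of Kcnh7, which overlaps Gca, of Kcnh1, which overlaps Hhat, and of Kcnip4, which overlaps 31 other genes, 7 of them on the other strand. In cortex Gca had at most 198 counts in a library, against 3092 to 5668 for Kcnh7. Hhat had at most 55, against 1193 to 2301 for Kcnh1. Kcnn1 (692 to 1077 counts) and Kcnmb4 (937 to 1686) also overlap opposite-strand genes, with at most 111 and 130 counts. Kcnh5 and Kcnj10 overlap no annotated gene.

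More channel genes passed in the female libraries taken alone. Of 82 genes tested in the 6 female libraries, 22 passed an unadjusted p of 0.05, 21 of them lower, where 15.4% of all genes passed, 9% lower and 6.41% higher, and 7.31% of protein-coding genes were lower. At the cutoff of 0.005 there were 10, all lower, against 4.02% of genes in either direction and 2.83% lower. After adjustment over all genes 4 remained, all lower, against 1.11% of genes in either direction and 0.893% lower. The median log2 fold change was −0.05 over the channel genes and −0.0022 over all genes. In 18 genes all 3 nPM libraries lay below all 3 controls and in 3 above, where 11.2% and 9.88% of all genes did so, and 17 of the 22 that passed were among them. The smallest exact permutation p that 3 libraries against 3 can give is 0.1, so p-values here come from the edgeR fit of exposure and RIN.

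Lower calls by class are set beside the 9% of all genes that were lower in females. There were 10 of 37 among voltage-gated subunits, 4 of 8 among calcium- and sodium-activated subunits and 4 of 14 among inward rectifiers. Auxiliary subunits had 2 of 13 (15.4%). Two-pore channels had 1 of 10 (10%), which is near the share of all genes. Kcnh5, whose promoter is printed above, had 48.4, 61.2 and 54.2 CPM in the controls V10, V12 and V19 and 43.6, 41.1 and 34.0 CPM in the nPM libraries V09, V11 and V20, without overlap. Its log2 fold change of −0.51 ± 0.08 (adjusted p = 0.0132, edgeR) had the smallest p of the channel genes. Kcnh7 had 170, 181 and 188 CPM against 157, 142 and 138 CPM, again without overlap, a log2 fold change of −0.32 ± 0.06 (adjusted p = 0.0186, edgeR).

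Kcnt2 had 87.4, 103 and 104 CPM in the same controls and 86.2, 78.6 and 72.0 CPM after nPM, so V09 came close to V10. Its log2 fold change was −0.35 ± 0.06 (adjusted p = 0.0217, edgeR). Kcnc2 had 47.6, 52.8 and 55.4 CPM against 43.8, 45.6 and 43.1 CPM, a narrow gap without overlap, at −0.26 ± 0.05 (adjusted p = 0.0431, edgeR). In each of these 4 genes V09 or V11 was the nPM library nearest to the controls. Adjusted calls depended on single libraries: no channel gene passed without V10, V11, V12 or V20, 1 passed without V19 and 8 without V09.

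**Figure D3:**
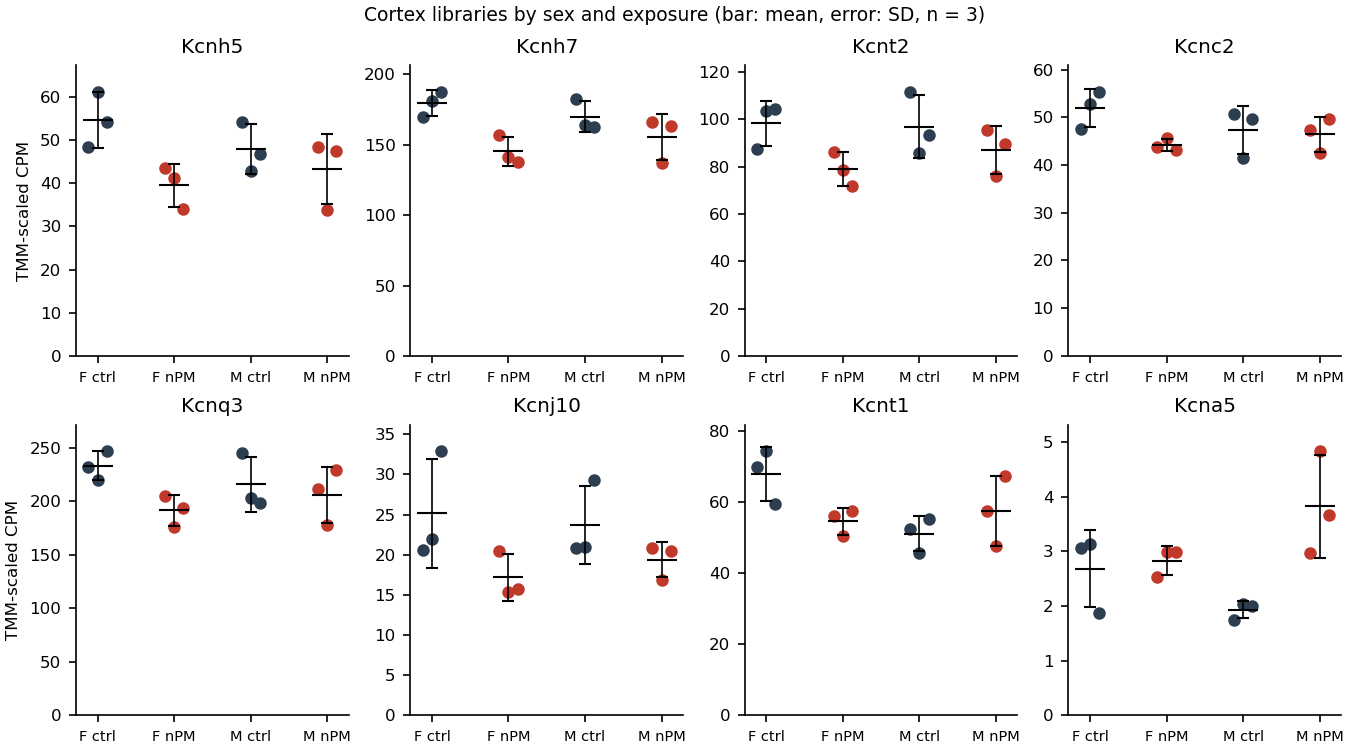
TMM-scaled CPM of 8 potassium channel genes in single cortex libraries by sex and exposure, with points for libraries, bars for the mean and error bars for the SD (n = 3). In females the nPM points of Kcnh5, Kcnh7, Kcnt2 and Kcnc2 lie below the control points, and in males only those of Kcna5 separate upward.

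The other 6 genes at the cutoff of 0.005 did not pass after adjustment. Kcnq3 of the M-current had 232, 220 and 247 CPM against 205, 176 and 194 CPM (−0.28 ± 0.06, adjusted p = 0.0586 by edgeR). Kcnk9 had 22.6, 21.9 and 23.5 CPM against 19.4, 16.9 and 17 CPM (−0.36 ± 0.08, adjusted p = 0.0676 by edgeR), and its controls lay closely together. Kcnt1, the sodium-activated partner of Kcnt2, had 70.0, 74.4 and 59.4 CPM against 56.0, 50.3 and 57.5 CPM (−0.29 ± 0.07, adjusted p = 0.0751 by edgeR), where V19 and V20, both of lane 3, lay close together. Kcnj10 of astrocytes had 20.5, 22.0 and 32.9 CPM against 20.5, 15.3 and 15.7 CPM (−0.59 ± 0.15, adjusted p = 0.0863 by edgeR), so V09 and V10 were nearly level. Kcna2, an axonal delayed rectifier, had 93.1, 88.5 and 105 CPM against 87.3, 72.6 and 78.0 CPM (−0.27 ± 0.08, adjusted p = 0.116 by edgeR). Kcnma1 had 145, 151 and 167 CPM against 142, 129 and 135 CPM (−0.20 ± 0.06, adjusted p = 0.122 by edgeR). Of the 10 genes at this cutoff, 8 kept an unadjusted p under 0.05 in every other setting, and Kcna2 (−0.15) and Kcnma1 (−0.12) lost it without V19. Kcnj10 kept it narrowly, at −0.32 without V19, and Kcnt1 had −0.19 without V12.

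Kcne4 had a p above the 10 smallest in females and was singled out after its values were seen, because it was the 1 of 22 that rose. This small subunit, which damps some Kcna and Kcnq channels, had 0.534, 0.511 and 0.576 CPM in controls and 1.09, 1.03 and 0.846 CPM after nPM, a log2 fold change of 0.82 ± 0.31 (adjusted p = 0.233, edgeR). Kcnj15, also chosen after its values were seen, had an estimate of −1.43 ± 0.55 in females, on at most 10 counts per library.

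Fewer channel genes passed in males. Of 80 genes tested, 4 passed an unadjusted p of 0.05, 3 higher and 1 lower, where 4.51% of all genes passed, 2.49% higher and 2.03% lower. None passed after adjustment, the lowest adjusted p being 0.962. All 3 nPM libraries were above the controls in 3 genes and below in 1, where 4.37% and 4.83% of all genes were. Kcna5 had 1.7, 2.04 and 2.00 CPM in the controls V14, V16 and V24 and 2.97, 4.84 and 3.67 CPM in the nPM libraries V13, V15 and V23, without overlap (0.99 ± 0.27, edgeR p = 0.00539, exact permutation p = 0.1). Kcnd3, an A-type pore related to Kcnd2, had 38.4, 43.2 and 43.2 CPM against 41.9, 49.3 and 52.6 CPM (0.28 ± 0.10, edgeR p = 0.0167, exact permutation p = 0.3). In Kcnd3 the lowest nPM library lay within the controls. Kcnn3, a small-conductance channel opened by calcium, had 26.0, 29.4 and 29.0 CPM against 28.7, 29.2 and 34.8 CPM (0.22 ± 0.09, edgeR p = 0.0331, exact permutation p = 0.5). Kcnmb4 had 54.6, 45.7 and 51.9 CPM against 49.7, 42.3 and 44.4 CPM (−0.22 ± 0.09, edgeR p = 0.0349, exact permutation p = 0.2). Of the 4, Kcna5 alone kept its call in every setting and with each library left out. Without V23 the estimate of Kcnn3 was 0.13 and that of Kcnd3 0.21, and neither passed. The call of Kcnmb4 was lost without V14, V15 or V24. The count of 4 rose to 15 without V23, 9 without V14 and 7 without V16 or V24, and to 14 with genes of fewer counts let in. The shares of all genes in those fits are not set beside these counts, so the rise is not a result about channel genes.

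Genes lower in females had small estimates in males, most of them in the same direction. Of 20 channel genes that fell in females and were tested in males, 16 had a lower and 4 a higher estimate there, with a median of −0.07, and 1 passed. Kcnh5 had −0.15 ± 0.15 in males (95% interval −0.49 to 0.19), Kcnh7 −0.11 ± 0.10 (−0.33 to 0.10), Kcnt2 −0.19 ± 0.12 (−0.46 to 0.07) and Kcnc2 −0.05 ± 0.10 (−0.28 to 0.18), on the log2 scale. The male intervals of Kcnh7, Kcnt2 and Kcnc2 reach past the female estimates, and that of Kcnh5 stops just short. Over all 80 channel genes tested in both sexes, 38 were lower and 13 higher in both, 15 were lower in females and higher in males, and 14 the other way. These counts between the sexes were made for channel genes only. Whether they differ from those of all genes was not tested.

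**Figure D4:**
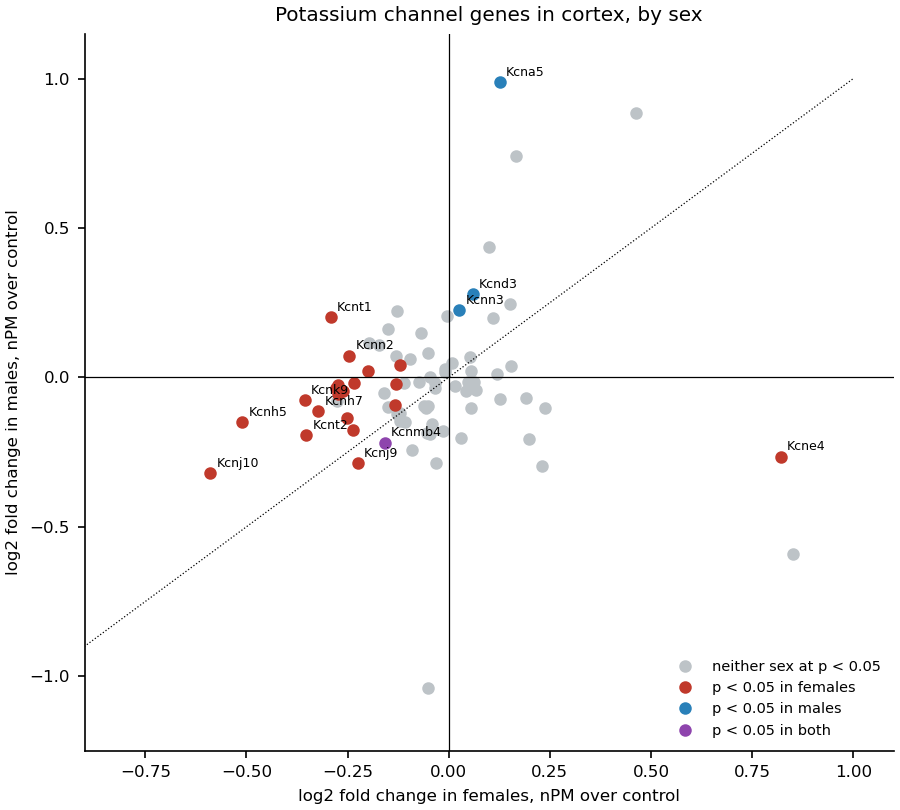
Log2 fold change, nPM over control, in females (horizontal axis) and in males (vertical axis) of the 80 potassium channel genes tested in both. Genes that fell in females lie to the left of 0 with a male median of −0.07, and Kcna5 has the highest male value at 0.99. The dotted line marks equal values in both sexes.

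The difference of the nPM effect between the sexes was tested by the exposure-by-sex term. It passed an unadjusted p of 0.05 in 3 of 80 channel genes, where 9.68% of all genes passed, and in none after adjustment. Kcnt1 had 52.5, 45.6 and 55.2 CPM in male controls and 57.4, 47.7 and 67.3 CPM in nPM males, an estimate of 0.20 ± 0.13 against −0.29 ± 0.07 in females. Its term was 0.45 ± 0.17 (adjusted p = 0.440 by edgeR). Kcnn2, a small-conductance channel opened by calcium, had 25.8, 25.2 and 23.6 CPM in female controls and 22.3, 21.5 and 19.2 CPM in nPM females. In males it had 22.9, 20.8 and 21 CPM in controls and 22.2, 22.1 and 23.5 CPM after nPM, and its term was 0.31 ± 0.12 (adjusted p = 0.443 by edgeR). The 2 sexes of Kcnn2 differed already in controls, where females were higher in each library. Kcna5 had a term of 0.82 ± 0.34 (adjusted p = 0.473 by edgeR), with 0.13 ± 0.22 in females. The terms of Kcnh5 (0.39 ± 0.19), Kcnh7 (0.21 ± 0.11), Kcnt2 (0.20 ± 0.15) and Kcnc2 (0.24 ± 0.12) had intervals that included 0. None of the 3 terms kept its call with each library left out in turn. Without V23 all 3 lost it, and the term of Kcnt1 was then 0.23 and that of Kcnn2 0.27, and without V20 that of Kcnn2 was 0.20. The call of Kcna5 was lost in 6 of the 12 leave-outs, with a term of 0.63 to 1.12 over them. The number of terms past the threshold ran from 0 without V23 to 11 without V24. The shares of all genes in these leave-outs are not set beside that range.

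In all neonates and in females, channel genes past the threshold were long. The 14 in all neonates had a median span of 290 kb and the 22 in females 145 kb, while the median of those tested was 39.4 kb. Among channel genes spanning 100 kb or more, 7 of 23 fell in all neonates and 11 of 23 in females. Shorter ones fell in 5 of 57 and 10 of 59. Protein-coding genes of that span or more fell in 5.06% of cases in all neonates and 16.7% in females, and shorter ones in 2.05% and 5.67%. In males 0 of 23 channel genes of 100 kb or more fell and 1 of 57 shorter ones. Protein-coding genes fell there in 1.78% and 2.07% of cases. The median span of the channel genes past the threshold in males was 105 kb.

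Some markers of cell maturation moved with exposure in females, and their part in the channel result was not tested. Mbp, a myelin gene that rises steeply after birth, passed the unadjusted threshold in females and fell by 0.49 on the log2 scale (adjusted p = 0.185 by edgeR). The 7 genes of the oligodendrocyte list summed to 486 to 594 CPM in female controls and 408 to 513 CPM in nPM females, and none was at 0. Of 7 astrocyte and radial glia genes, Fabp7 of immature glia rose by 0.36 (adjusted p = 0.0292) and Slc1a2, the glutamate transporter of mature astrocytes, fell by 0.32 (adjusted p = 0.145, both by edgeR). That list summed to 2440 to 2788 CPM in controls and 2362 to 2641 CPM after nPM, with none at 0. Of 8 interneuron genes 1 rose in females and 2 in all neonates, where Gad1 rose by 0.26 on the log2 scale (adjusted p = 0.4926, edgeR).

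The channel genes' median deviation from their mean over libraries, in log2 CPM, was 0.05, 0.02 and 0.05 in the female controls V10, V12 and V19 and −0.0042, −0.07 and −0.05 in the nPM females V09, V11 and V20. Mbp had 183, 145 and 130 CPM in these controls and 142, 86.2 and 83.7 CPM after nPM. Of the nPM females V09 had the most Mbp, and its channel genes lay nearest to the controls. In males the groups mixed, with 0.04, −0.06 and 0.06 in the controls V14, V16 and V24 and 0.04, −0.05 and 0.02 in the nPM libraries V13, V15 and V23. Mbp had 94.8, 89.8 and 270 CPM in these male controls and 144, 105 and 120 CPM in these nPM males. V14 had little Mbp, and its channel genes lay as high as those of the female controls. Both were low in V16 and V15, and both were high in V24. The plot of deviations by library shows these values. With log2 CPM of Mbp as a further term, an alternative chosen after seeing the data, 11 of 82 channel genes passed the unadjusted threshold in females, where 8.76% of all genes did, and none passed after adjustment. In all neonates 13 of 80 passed with that term, where 5.95% of all genes did, and the median of the channel genes was −0.02 in place of −0.05. The calls of 4 genes in all neonates ended with that term, with log2 fold changes of −0.09 in place of −0.16 for Kcnip4, −0.12 in place of −0.20 for Kcnk9, −0.07 in place of −0.11 for Kcnq5 and −0.10 in place of −0.19 for Kcnj9. In females the calls of Kcna2 (−0.18 in place of −0.27) and Kcnma1 (−0.17 in place of −0.20) ended, where the estimate of Kcnma1 moved little and its SE rose from 0.06 to 0.08. A further term leaves few degrees of freedom in females, and what ended these calls was not tested. The age of each pup is not in the labels, and the methods give 1 age, day 5, for all.

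**Figure D5:**
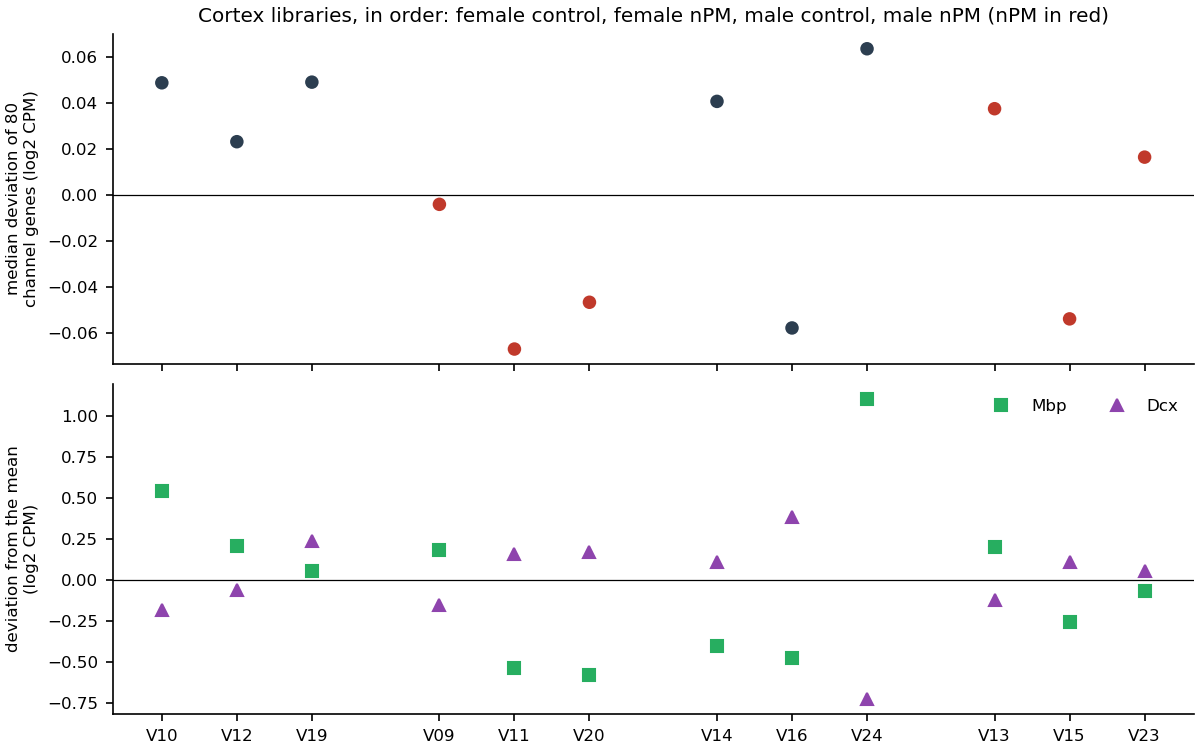
Median deviation of 80 potassium channel genes from their mean (log2 CPM, upper panel) and deviations of Mbp and Dcx, a gene of immature neurons (lower panel), in each cortex library. The 3 female controls are above 0 and the 3 nPM females below 0 in the upper panel, where males of both groups lie on both sides.

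Kcne2 and Kcnj13, an auxiliary subunit and an inward rectifier known from choroid plexus epithelium, were lowest in the library with the fewest choroid plexus markers. Kcnj13 was chosen after its values were seen. In V14, a male control, the 5 choroid markers summed to 30.1 CPM, against 233 to 505 CPM in the other 11 cortex libraries, and Ttr had 27.2 CPM. Kcne2 had 0.146 CPM and Kcnj13 0.437 CPM there, below the next lowest libraries at 1.19 and 1.22 CPM and the medians of 1.85 and 1.61 CPM. V20 had the highest marker sum and was highest in all 3 genes, with 2.94 CPM of Kcne2, 2.49 CPM of Kcnj13 and 484 CPM of Ttr. Neither gene was among those past the threshold.

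Other genes of potassium handling were described from lists. Among 14 tested partner proteins of potassium channels none passed in all neonates, and in females 2 of the 14 passed an unadjusted p of 0.05, where 15.4% of all genes did. These were Kcnrg at 0.65 (adjusted p = 0.285, edgeR) and Abcc8, the sulfonylurea receptor, at −0.30 on the log2 scale (adjusted p = 0.209, edgeR). Of 4 HCN channels, relatives that carry a depolarizing current on hyperpolarization, none passed in all neonates. Of 11 genes of the sodium-potassium pump and the potassium-chloride carriers, 2 passed an unadjusted p of 0.05 in all neonates, Atp1b3 at 0.09 (adjusted p = 0.862, edgeR) and Slc12a4 at −0.16 (adjusted p = 0.844, edgeR). In females Slc12a2, a carrier that brings sodium, potassium and chloride into the cell, had −0.18 (adjusted p = 0.129, edgeR).

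Blood held little channel RNA. No channel gene reached a mean of 1 RPKM over the 11 libraries without V2, 7 had a count in every library, 71 in some and 14 in none. Kcnn4, the calcium-activated channel of red cells and lymphocytes, led with 0.728 ± 0.113 RPKM (mean ± SD, n = 11), where cortex had 0 to 15 counts of it. Kcna3, the main voltage-gated channel of T cells, had 0.535 ± 0.125 RPKM and Kcnab2 0.469 ± 0.132 RPKM. The order of these 3 lies within their spread. Kcnk6, a two-pore channel, had 0.128 ± 0.0605 RPKM, and the inward rectifiers Kcnj5 and Kcnj2 had 0.109 ± 0.0565 and 0.0767 ± 0.0401 RPKM.

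None of the 7 tested channel genes passed an unadjusted p of 0.05 for nPM in blood by edgeR, where 3.11% of all genes passed. Kcnn4 had 3.08, 3.77 and 4.32 CPM in controls and 2.74, 3.68 and 4.48 CPM after nPM, at −0.08 ± 0.19 (95% interval −0.49 to 0.32). Kcna3 had 0.566, 1.07 and 1.3 CPM against 0.739, 1.02 and 1.33 CPM, at −0.06 ± 0.28 (−0.66 to 0.53). In both the groups overlapped over most of their range. Kcnab2 had 2.15, 3.01 and 3.58 CPM against 1.38, 2.33 and 3.59 CPM, at −0.32 ± 0.25 (−0.84 to 0.20). Kcnk6 had 0.0707, 0.492 and 0.683 CPM against 0.320, 0.650 and 0.886 CPM, at 0.56 ± 0.44 (−0.36 to 1.48). All 4 intervals include both 0 and −0.30, the estimate of Kcnh5 in cortex of all neonates, and those of Kcnn4 and Kcnab2 stop below 0.52, the cortex estimate of Kcna5. Kcnd1, Kcnj2 and Kcnj5 had estimates of −0.36 ± 0.48, −0.27 ± 0.48 and −0.21 ± 0.39.

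The number of channel genes seen in blood went with the library and the lane. The 6 lane 1 libraries other than V2 and V5 had counts in 12 to 32 channel genes and 7.23 to 15.3 CPM of them in sum. The 4 libraries of lane 3, a lane shared with 4 cortex libraries, had 41 to 52 channel genes and 13.8 to 15.2 CPM. V5, an nPM library, had 65 and 49.1 CPM, and V2 had 72 and 76.0 CPM. Neuron genes, 8 in number, summed to 0.206 to 3.42 CPM in the first libraries, 10.6 to 15 CPM in lane 3, 57.3 CPM in V5 and 35.7 CPM in V2. Sums were also set against the mean of the 4 cortex libraries of lane 3. The 86 channel genes other than the leading 6 came to 0.0533% of that level in the first libraries, 0.162% in lane 3, 1.18% in V5 and 1.65% in V2. The neuron genes came to 0.00849%, 0.116%, 0.530% and 0.330%. The part of neuronal RNA in the channel counts of blood was not tested. V2 had 12.3 CPM of Kcnk6 and 3.49 CPM of Kcnj2, where no lane 1 or lane 3 library among the others exceeded 0.886 and 0.858 CPM. In cortex, globin took 0.0244 to 0.0445% of counts in lane 2 and 0.0614 to 0.0678% in lane 3.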

How the data were processed

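Ribosomal-depleted (RiboZero Gold) RNA-seq libraries from 12 cortices and 12 blood samples were used. The authors ran FastQC, Trimmomatic, HISAT2 on mm10 and featureCounts 1.5.0-p3 on Gencode M11 genes, and deposited raw counts per gene without normalization. Their gene table gave symbols, types, coordinates and lengths. Its mean RPKM values, deposited by the authors, were not used. RPKM here was computed from TMM-scaled counts.

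edgeR 4.0.16 quasi-likelihood tests (two-sided, TMM, R 4.3.3) were fitted over all genes, leaving out any gene with a count under 1 in a library fitted, 1 tissue at a time, with exposure, sex and RIN, with the exposure-by-sex term added, or within 1 sex with RIN. P-values were adjusted by Benjamini-Hochberg over all genes tested. The prior count was 0.5. Library V2 was left out of blood. Fits were tested on simulated data with 200 genes changed 2-fold. In the fit of all cortex libraries 199 of these were recovered at the unadjusted threshold and 186 after adjustment. After adjustment 183 were recovered in females, 142 in males, 111 for the exposure-by-sex term and 98 in blood. The changed genes were well counted, and most channel estimates were smaller than 2-fold. The simulation therefore does not measure how often changes of that size are found.

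Alternatives were DESeq2 1.42.0, limma 3.58.1 voom, RLE size factors, minimum counts of 1 in any or 10 in every library, no RIN, lane, all blood libraries, within-lane values and leaving out each library. A fit of both sexes for each sex and a term for Mbp were chosen after seeing the data. Named were genes at an unadjusted p under 0.05 in cortex (at most 10 per sex and for the interaction), subfamily leaders and the 6 leading blood genes. Members and lists were chosen with earlier results of these data known. No 2 libraries of a tissue were copies (smallest chi-square per gene 5.75 in cortex and 11.0 in blood). Results of a few genes are not reported here.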

Additional observations from a re-analysis of the deposited data

Results flagged for a closer look

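Chance flags about 1 in 20 groups when a library is compared with the rest of its group, and 2 of 58 groups were flagged. Kcnmb4 stood at 49.7 CPM in V13, a male nPM cortex library, while the other 5 nPM libraries lay between 41.7 and 44.4 CPM. The median deviation of the channel genes was −0.058 in V16, a male control, with the other controls between 0.023 and 0.064 in log2 CPM.

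The exposure-by-sex term passed an unadjusted p of 0.05 in 3 channel genes, at 0.45 for Kcnt1, 0.31 for Kcnn2 and 0.82 for Kcna5 on the log2 scale, male minus female effect, and none passed after adjustment by edgeR. In blood, the channel genes summed to 76.0 CPM in V2, the control left out of the comparison, against 7.23 to 15.3 CPM in the other controls.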

How the results depend on the processing

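The count of channel genes past p 0.05 in cortex of all neonates stayed between 13 and 18 in every setting with all libraries, and ran from 8 to 19 with 1 library left out. In females the count was 11 with the Mbp term, 14 from the fit of both sexes and 14 to 28 with 1 library left out. The females' count past adjusted p was 0 with the Mbp term, 0 from the fit of both sexes, 7 by DESeq2, 13 with at least 1 count in any library and 0 to 8 with 1 library left out. In males it was 14 with at least 1 count in any library, 2 without RIN, 1 from the fit of both sexes and 4 to 15 with 1 left out. The exposure-by-sex count was 13 with that filter, 5 without RIN and 0 to 11 with 1 left out. In blood it was 3 with that filter. In the main fits 5.67% of all genes passed in all neonates, 15.4% in females (1.11% after adjustment) and 4.51% in males. For the exposure-by-sex term it was 9.68% and in blood 3.11%. The shares of all genes in the other settings are not set beside these counts, so a shift in a count is not a result about channel genes. The cause of these differences was not tested.

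No cortex estimate of a named gene changed sign in any setting, and 74 such values no longer passed. In blood, where no gene passed, signs turned positive with all 12 libraries (Kcna3 0.23, Kcnn4 0.20, Kcnj5 0.14), in lane 1 (Kcna3 0.081) and in lane 3 (Kcnab2 0.014, Kcnn4 0.24, Kcnj5 0.084, Kcnj2 0.11), and negative in lane 3 for Kcnk6 (−0.22). With 1 library left out Kcna3 ran from −0.21 to 0.027, Kcnj2 from −0.77 to 0.16 and Kcnj5 from −0.41 to 0.011. No paired analysis was possible because the library numbers are not shared between groups. The SE limits what could be seen, with a median over channel genes of 0.08 in cortex and 0.39 in blood.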
